A study of Mus musculus with 8 samples.

Results

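Paired receptors are families of closely related surface receptors in which some members activate and others inhibit the cell that carries them. The 10 such genes examined here in primary mouse microglia were chosen by name from the Siglec, LILR and PIR, SIRP, CD300 and TREM families: Siglec1, Siglece, Cd33, Lilrb4a, Pirb, Sirpa, Cd300lf, Cd300a, Trem1 and Trem3. They are 10 of the 52636 genes in the count table. RNA was sequenced from microglia treated for 24 h with 5 µg/ml LPS, a bacterial cell wall component sensed by Toll-like receptors, and from microglia treated for 24 h with vehicle, with 4 libraries in each group. Cells of both groups were wild-type C57BL/6 microglia (from C57BL/6N pups, by the methods) that had been shaken off neonatal mixed glial cultures, where they lay over a layer of astrocytes, and both received 10% fetal bovine serum and 10 ng/ml recombinant CSF-1, a growth factor that microglia need to survive. The composition of the vehicle is not given in the sources used here. The labels call the libraries of a group biological replicates without saying whether each came from its own culture, so p-values measure the spread between these samples, which may be technical.

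Inhibitory receptors of these families carry a tyrosine motif, the ITIM, in their cytoplasmic tail, and once phosphorylated it recruits phosphatases such as SHP-1, SHP-2 and SHIP-1. Activating members have short tails and borrow an ITAM from an adaptor, DAP12 or the Fc receptor gamma chain, through which the kinase Syk is engaged. Microglia carry both kinds, and receptors that couple to DAP12 or bind sialic acid have been studied in neurodegeneration.

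Each gene's count is its number of uniquely aligned reads, and libraries held 20071921 to 30604447 counts. Levels are given as CPM, for which the TMM-adjusted library size is the divisor, and, where genes are compared with each other, as TPM, which also divides by exonic length. Intervals and limits from counts cover counting error only. LPS changed a large share of the transcriptome: edgeR's quasi-likelihood test with Benjamini-Hochberg adjustment, at an adjusted p under 0.05, called 4191 of 13847 tested genes higher and 4686 lower, or 1988 higher and 8457 lower when libraries were scaled by their total counts. Total count scaling shifted the log2 fold change of the median gene by -0.68 and upper quartile scaling by -0.156. The label was checked against 12 microglia markers, each of which passed the filter on low counts. Their summed level was 10189 to 12830 CPM in vehicle and 1987 to 2218 CPM after LPS, and 10 of them were called lower and 0 higher, with Tmem119 also called lower with a replicate block (edgeR adjusted p = 0.000911). In bulk samples, fewer cells of a type and less RNA per cell cannot be told apart. The part of this fall in the results on the receptors was not tested.

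Of the 10 receptor genes, 9 passed the filter and were tested. The test called 6 higher (Siglec1, Siglece, Pirb, Cd300lf, Trem1 and Trem3) and 2 lower (Sirpa and Cd300a), while Cd33 was not called and Lilrb4a had too few counts to test. For comparison, 64.1% of all tested genes were called, 30.3% higher and 33.8% lower. The CPM values of vehicle and LPS libraries did not overlap for 8 of the 9 tested receptor genes, against 60.2% of all tested genes, and 6 lay above vehicle (28.7% of all) and 2 below (31.5%). With the replicate number as a block, edgeR again called 6 higher and 2 lower, where 65.3% of all genes were called, 29.7% higher and 35.6% lower. The median log2 fold change, LPS against vehicle, was 2.65 over the 9 tested receptor genes and -0.11 over all tested genes. Trem1 and Trem3 passed the filter through their LPS libraries, since 2 of 4 and 0 of 4 vehicle libraries reached its level, so these counts and the median describe the 9 genes and are no measure of the families as a whole. At a minimum of 10 counts in every library both dropped out, and 4 genes were called higher.

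**Figure D1:**
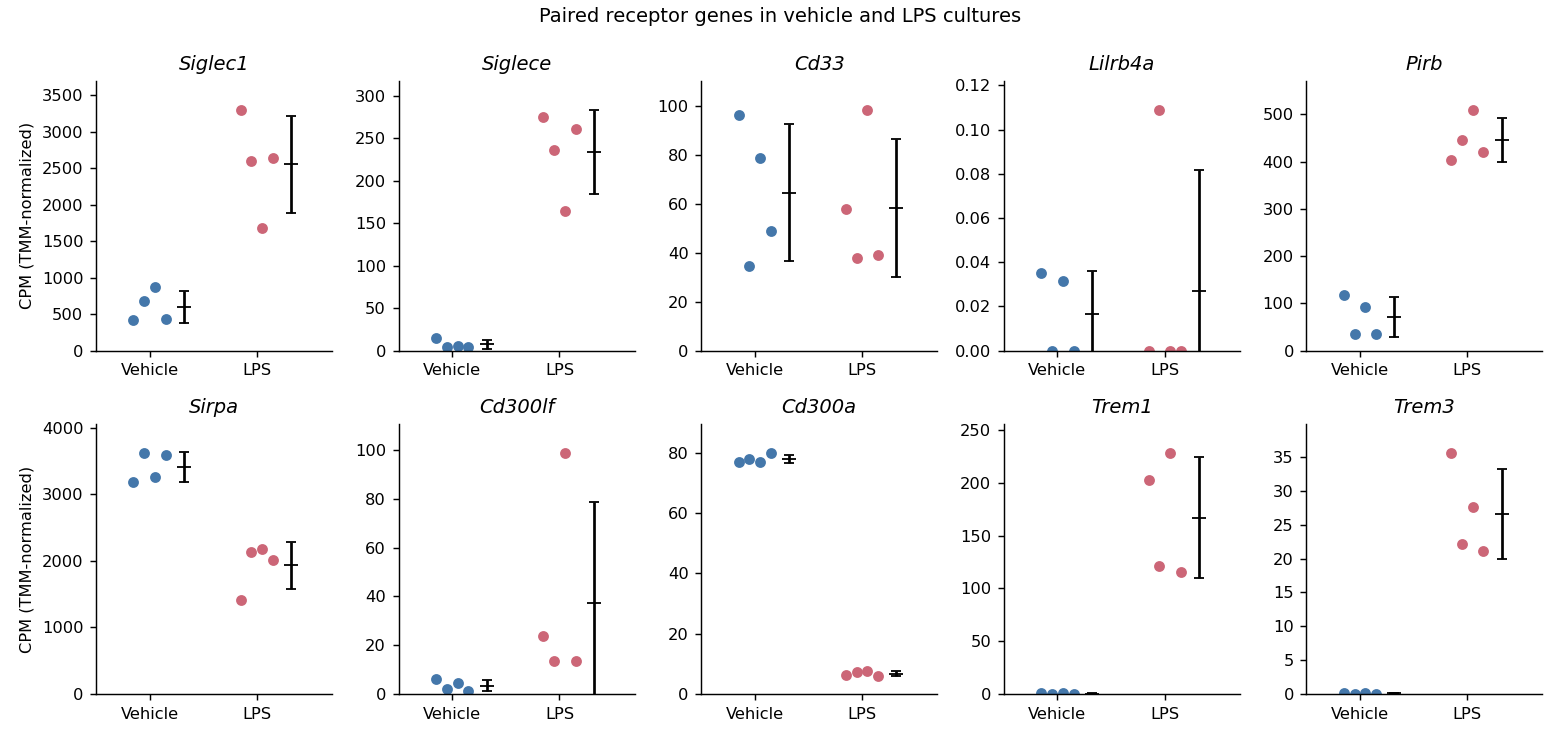
TMM-normalized CPM of the 10 paired receptor genes, 1 panel a gene with its own linear axis. Points are the 4 vehicle and 4 LPS libraries in replicate order, and bars are the mean and SD. The groups are apart in 8 panels, and overlap for Cd33 and for Lilrb4a, whose highest value is 0.109 CPM.

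Among the Siglecs, which bind sialic acid on glycoproteins and glycolipids, Siglec1 and Siglece rose and Cd33 did not pass the test. Siglec1 (ENSMUSG00000027322, chr2:131069220-131086765, GRCm38, minus strand) encodes sialoadhesin or CD169, a long macrophage receptor without an ITIM that binds sialylated cells and particles. Siglec1 was at 425, 683, 868 and 428 CPM in vehicle replicates 1 to 4 and at 3297, 2592, 1683 and 2638 CPM in LPS replicates 1 to 4. Every LPS library lay above every vehicle library, and the groups came closest in replicate 3, the highest vehicle and the lowest LPS library. The rise was 4.25-fold in mean CPM, with a log2 fold change of 2.09 ± 0.29 (SE, n = 4 per group, edgeR adjusted p = 0.000173).

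Siglece (ENSMUSG00000030474, chr7:43651070-43660161, minus strand) encodes an ITIM-bearing inhibitory Siglec of mouse myeloid cells. Its CPM was 14.98, 4.32, 5.68 and 4.79 in vehicle replicates 1 to 4 and 275, 237, 164 and 261 in LPS replicates 1 to 4. Vehicle replicate 1 stood above the other three vehicle libraries, and the lowest LPS library was still far above it. The log2 fold change was 4.97 ± 0.43 (edgeR adjusted p = 8.64e-06), a 31.4-fold rise in mean CPM, and 5.60 without vehicle replicate 1. The promoter of Siglece is shown because it is the Siglec with the largest change. It spans chr7:43660112-43660411 on the minus strand (250 bases before to 50 after the RefSeq start), and capitals mark 3 copies, on either strand, of GAGGAA, the core that the myeloid factor PU.1 binds.
Siglece: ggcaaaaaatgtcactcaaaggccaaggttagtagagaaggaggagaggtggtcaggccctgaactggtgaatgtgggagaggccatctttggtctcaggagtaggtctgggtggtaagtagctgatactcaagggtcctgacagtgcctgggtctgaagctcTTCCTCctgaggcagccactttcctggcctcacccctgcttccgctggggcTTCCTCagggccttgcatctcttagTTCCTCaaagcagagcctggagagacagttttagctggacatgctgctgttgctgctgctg

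Cd33 (ENSMUSG00000004609, chr7:43524216-43544428, minus strand) lies 106641 bases from Siglece, and its human counterpart is an inhibitory Siglec linked to the risk of Alzheimer's disease. Cd33 was at 96.3, 34.6, 78.7 and 48.9 CPM in vehicle replicates 1 to 4 and at 57.9, 38.0, 98.5 and 39.1 CPM in LPS replicates 1 to 4. The groups overlapped over most of their range, and Cd33 was higher after LPS in 2 of the 4 same-numbered pairs of libraries and lower in 2. The log2 fold change was -0.15 ± 0.38 (edgeR adjusted p = 0.746), and it changed sign when vehicle replicate 1 (0.12), vehicle replicate 3 (0.0083), LPS replicate 2 (0.023) or LPS replicate 4 (0.014) was left out. Under total count scaling Cd33 was called lower, with a log2 fold change of -0.85 (edgeR adjusted p = 0.0465). Whether Siglece and Cd33 changed by different amounts was tested on the ratio of their counts within a library, which does not depend on library size. The log2 ratio of Siglece to Cd33 counts was -3.20 ± 0.47 (SD, n = 4) in vehicle and 2.09 ± 0.93 after LPS, a difference of 5.29 (exact permutation test, two-sided, p = 0.0286, which no division of 4 against 4 can go below, and 0.0381 after adjustment over 4 pairs of genes). Exact sign flips within the 4 same-numbered pairs cannot go below p = 0.125, which is the value they gave.

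The LILR and PIR families hold immunoglobulin-like receptors, several of which bind MHC class I. Pirb (ENSMUSG00000058818, chr7:3711409-3720391, minus strand) is an ITIM-bearing inhibitory receptor for MHC class I that is also known in the brain for limiting neuronal plasticity. Pirb was at 118, 36.2, 93.3 and 35.3 CPM in vehicle replicates 1 to 4 and at 405, 447, 509 and 421 CPM in LPS replicates 1 to 4. The vehicle libraries fell into a higher pair, replicates 1 and 3, and a lower pair, replicates 2 and 4, whereas the LPS libraries lay close together and above all of them. Pirb rose 6.29-fold in mean CPM, with a log2 fold change of 2.65 ± 0.39 (edgeR adjusted p = 0.000248). Of the 50-base windows of its transcripts, 34.0% also occur in Pira genes, its activating relatives, so their reads may be lost or shared, but each of 5 such relatives had at most 10 counts in a library.

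Lilrb4a (ENSMUSG00000112148, chr10:51490956-51496611, plus strand) encodes an ITIM-bearing inhibitory receptor of myeloid and mast cells, gp49B. It had 1, 0, 1 and 0 counts in vehicle replicates 1 to 4 and 0, 2, 0 and 0 counts in LPS replicates 1 to 4, all at or under 3 counts, the limit that a count of 0 allows. No difference was detectable, and these counts do not measure the mRNA well. In GENCODE vM21, Gm49339 covers 35.3% of its exonic bases on the same strand, with 1 to 14 counts a library, and 47.2% of its 50-base windows also occur in Gm49339, Lilr4b or Gm40645. Lilr4b, the neighbouring relative (also called Lilrb4b) that lacks an ITIM, had 3269 to 4390 counts in vehicle and 6924 to 18525 counts after LPS (log2 fold change 2.08 ± 0.23, edgeR adjusted p = 4.12e-05).

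Sirpa (ENSMUSG00000037902, chr2:129592835-129632228, plus strand) encodes SIRP-alpha, the ITIM-bearing receptor for CD47 through which phagocytes are restrained from engulfing healthy cells. Sirpa was at 3184, 3618, 3254 and 3591 CPM in vehicle replicates 1 to 4 and at 1418, 2137, 2173 and 2008 CPM in LPS replicates 1 to 4. LPS replicate 1 was the lowest, and every LPS library lay below every vehicle library. The fall was 1.76-fold in mean CPM, with a log2 fold change of -0.82 ± 0.17 (edgeR adjusted p = 0.0019). It is the smallest change among the 8 called receptor genes. The activating SIRP genes Sirpb1a, Sirpb1b and Sirpb1c were each called higher, with log2 fold changes of 2.81, 2.81 and 2.38, but they share 40.4% to 58.0% of their 50-base windows, mostly with each other, so their separate values are uncertain.

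The CD300 family, several members of which bind phospholipids exposed on dying cells, contributed receptors that changed in opposite directions. Cd300a (ENSMUSG00000034652, chr11:114890041-114904654, plus strand) and Cd300lf (ENSMUSG00000047798, chr11:115116214-115133992, minus strand) both encode ITIM-bearing inhibitory receptors and lie 211559 bases apart. Cd300a was at 77.0, 78.1, 77.1 and 80.0 CPM in vehicle replicates 1 to 4 and at 6.16, 7.13, 7.60 and 6.06 CPM in LPS replicates 1 to 4. Both groups were narrow, and the fall was 11.6-fold in mean CPM, with a log2 fold change of -3.53 ± 0.11 (edgeR adjusted p = 3.75e-08). Cd300lf was at 6.06, 2.01, 4.28 and 1.24 CPM in vehicle replicates 1 to 4 and at 23.8, 13.4, 98.7 and 13.7 CPM in LPS replicates 1 to 4. LPS replicate 3 was far above the other LPS libraries, and all 4 lay above the highest vehicle library. The log2 fold change of Cd300lf was 3.46 ± 0.76 (edgeR adjusted p = 0.00291), and 2.32 (edgeR adjusted p = 0.00298) without LPS replicate 3.

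The log2 ratio of Cd300a to Cd300lf counts was 4.76 ± 1.04 (SD, n = 4) in vehicle and -1.92 ± 1.26 after LPS. The difference of -6.69 had a two-sided exact permutation p of 0.0286, the smallest possible, and 0.0381 after adjustment over the 4 pairs, while sign flips within same-numbered pairs gave their smallest p of 0.125. Per length, Cd300a was at 66.0 to 78.5 TPM and Cd300lf at 1.123 to 4.87 TPM in vehicle, and at 3.40 to 3.97 and 6.87 to 43.7 TPM after LPS. The pair therefore stood in opposite order in the vehicle and the LPS libraries.

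**Figure D2:**
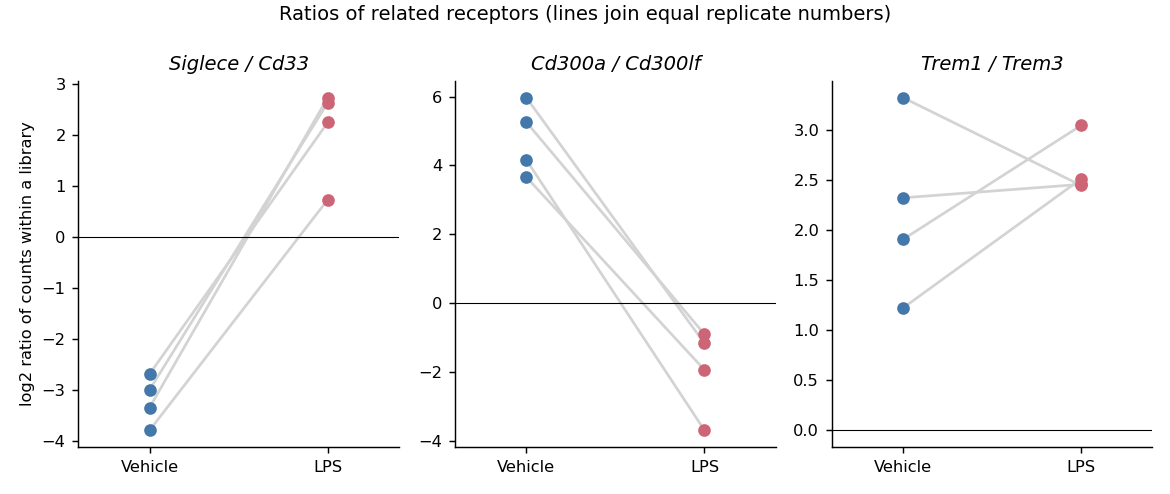
Log2 ratio of the raw counts of 2 related receptor genes within each library (1 added to each count), for vehicle and LPS. Points are the 4 libraries of a group, and grey lines join equal replicate numbers. Siglece to Cd33 rises from a mean of -3.20 to 2.09, Cd300a to Cd300lf falls from 4.76 to -1.92, and the groups overlap for Trem1 to Trem3.

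The promoters of Cd300a and Cd300lf are shown because these inhibitory relatives moved in opposite directions. That of Cd300a spans chr11:114889791-114890090 on the plus strand and that of Cd300lf chr11:115133943-115134242 on the minus strand, each 250 bases before to 50 after the RefSeq start. Capitals mark the only matches to 5 motifs searched on both strands: an NF-kB site followed by 1 PU.1 core (GAGGAA or its reverse complement) in Cd300a, and 2 PU.1 cores in Cd300lf.
Cd300a: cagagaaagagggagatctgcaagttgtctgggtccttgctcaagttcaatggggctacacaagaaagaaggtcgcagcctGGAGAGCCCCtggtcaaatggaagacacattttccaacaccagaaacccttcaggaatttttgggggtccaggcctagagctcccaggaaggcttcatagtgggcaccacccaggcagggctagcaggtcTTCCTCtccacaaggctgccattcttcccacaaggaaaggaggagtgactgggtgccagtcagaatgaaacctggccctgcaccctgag
Cd300lf: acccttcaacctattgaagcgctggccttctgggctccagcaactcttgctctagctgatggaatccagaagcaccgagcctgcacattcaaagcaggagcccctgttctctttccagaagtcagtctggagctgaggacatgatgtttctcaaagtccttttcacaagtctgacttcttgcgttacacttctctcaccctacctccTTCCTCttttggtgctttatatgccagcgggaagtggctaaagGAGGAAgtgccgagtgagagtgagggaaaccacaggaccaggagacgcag

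Across the 12 CD300 genes of chromosome 11 in the count table, 8 were tested, and 4 were called higher and 4 lower. Of all tested genes, 30.3% were called higher and 33.8% lower. Beside Cd300lf, the gene for the activating receptor Cd300e rose from 0.451 ± 0.269 to 15.2 ± 4.58 CPM (SD, n = 4), with a log2 fold change of 5.06, and Cd300ld (1.50) and Cd300ld4 (1.30) were called higher. Beside Cd300a, the DAP12-coupled Cd300lb fell from 175 ± 13.5 to 3.55 ± 0.466 CPM, with a log2 fold change of -5.62, and Cd300c2 (-1.80) and Cd300ld3 (-1.50) were called lower. Cd300ld3 and Cd300ld4 share 82.1% and 93.8% of their 50-base windows with relatives and were under 3 CPM in every library, so their values are uncertain, and the call of Cd300ld3 was lost without LPS replicate 1 or 3 or vehicle replicate 2 or 3 (-1.40 to -1.12) and that of Cd300ld4 without LPS replicate 2 (1.19) and under total count scaling (0.63). Cd300a and Cd300lf share 3.45% and 2.44%.

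Trem1 and Trem3 showed the largest changes of the 10 genes. Trem1 (ENSMUSG00000042265, chr17:48232768-48246924, plus strand) encodes a DAP12-coupled activating receptor of myeloid cells that amplifies Toll-like receptor signalling. Trem1 had 13, 9, 14 and 4 counts in vehicle replicates 1 to 4 (0.455, 0.311, 0.444 and 0.142 CPM) and 3396, 2226, 4894 and 2145 counts in LPS replicates 1 to 4 (203, 121, 228 and 116 CPM). LPS replicates 1 and 3 were the highest, and the groups were far apart. Summed over libraries, 40 vehicle and 12661 LPS counts gave a 494-fold rise after scaling (95% exact interval 363 to 692), and the log2 fold change was 8.92 ± 0.38 (edgeR adjusted p = 1.83e-07).

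Trem3 (ENSMUSG00000041754, chr17:48247777-48258841, plus strand) begins 852 bases after the end of Trem1 and encodes another DAP12-coupled receptor, which is a pseudogene in humans. It had 5, 0, 3 and 0 counts in vehicle replicates 1 to 4 and 595, 408, 592 and 390 counts in LPS replicates 1 to 4, the latter equal to 35.6, 22.2, 27.6 and 21.1 CPM. Vehicle levels were thus near the limit of detection in every library, and LPS replicates 1 and 3 were again the highest. The rise was 388-fold over summed counts (8 and 1985 counts, 95% exact interval 196 to 899), with a log2 fold change of 8.50 ± 0.49 (edgeR adjusted p = 8.08e-07) and of 9.44 without vehicle replicate 1. In LPS libraries the log2 ratio of Trem1 to Trem3 counts was 2.61 ± 0.29 (SD, n = 4), against 2.19 ± 0.88 in vehicle. The difference of 0.42 did not pass a two-sided exact permutation test (p = 0.429, also 0.429 after adjustment over the 4 pairs), and it rests on vehicle libraries with few counts: it was 0.80 (adjusted exact p = 0.0381) without vehicle replicate 2, and -0.075 when 0.5 in place of 1 was added to each count.

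The promoter of Trem1, which had the largest change, spans chr17:48232489-48232788 on the plus strand. Capitals mark an interferon-gamma-activated site (TTCNNNGAA), directly followed by a PU.1 core (GAGGAA).
Trem1: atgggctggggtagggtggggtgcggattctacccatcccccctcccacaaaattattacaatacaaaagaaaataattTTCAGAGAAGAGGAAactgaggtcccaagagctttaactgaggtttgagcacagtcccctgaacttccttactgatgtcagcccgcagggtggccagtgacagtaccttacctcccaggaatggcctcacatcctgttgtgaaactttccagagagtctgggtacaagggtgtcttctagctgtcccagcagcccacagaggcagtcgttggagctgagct

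Promoters of 6 of the 10 genes (Siglece, Cd33, Pirb, Cd300a, Cd300lf and Trem1) were in the RefSeq table for GRCm38.p6, which holds 32851 promoters of 300 bases. A PU.1 core was found in 6 of the 6, against 28.3% of all promoters. The interferon-gamma-activated site was found in Trem1 alone of the 6 (8.3% of all promoters), and the NF-kB site in Cd300a alone (8.46%). The interferon-stimulated response element core (GAAA, any 2 bases, GAAA, 3.44%) and the AP-1 site TGANTCA (7.81%) were found in 0 of the 6. Such matches describe the letters of these windows only.

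Markers of other cell types were read beside Trem1 and Siglec1, because neutrophils and monocytes carry TREM-1 and border macrophages carry CD169. The summed level of 10 neutrophil markers was 0.104 to 0.91 CPM in vehicle and 572 to 1176 CPM after LPS, of which S100a8, an alarmin that activated macrophages can also make, had 572 to 1173 CPM. In every library 8 of the 10, among them Ly6g, Mpo, Elane and S100a9, had at most 3 counts. S100a9, whose protein pairs with that of S100a8, was at 0 in every library. The annotation used in counting is not given in the sources used here, so a count of 0 may not measure absence of the mRNA. The remaining marker, Camp, was under the filter. It had 3, 0, 1 and 0 counts in vehicle replicates 1 to 4 and 50, 6, 11 and 6 in LPS replicates 1 to 4. The summed level of 5 monocyte markers was 199 to 1129 CPM in vehicle and 9.79 to 69.96 CPM after LPS, most of it Fn1, which was called lower. Ccr2, the other monocyte marker tested, was not called (log2 fold change 0.57), and Chil3 was at 0 in every library. Plac8 and Ly6c2 were under the filter. Plac8 had 0 counts in every vehicle library and 4, 2, 3 and 4 in LPS replicates 1 to 4. Ly6c2 had 6, 0, 1 and 0 counts in vehicle replicates 1 to 4 and 16, 0, 0 and 0 in LPS replicates 1 to 4. The 7 border macrophage markers were at 927 to 1722 CPM in vehicle and 544 to 976 CPM after LPS, and 3 of them were called lower and 1 higher, with Ms4a7 also called higher with a replicate block (edgeR adjusted p = 0.00342). Astrocyte markers (7 genes), read because the microglia had been shaken off a layer of astrocytes, summed to 19.98 to 45.8 CPM in vehicle and 40.6 to 123 CPM after LPS. Gja1 alone was called higher (0.639 to 1.07 CPM in vehicle and 28.9 to 98.1 CPM after LPS), while Gfap, Aqp4 and Aldh1l1 were called lower. The part of these markers in the rises of Trem1 and Siglec1 was not tested.

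Beyond Trem1 and Trem3, the TREM genes of chromosome 17 differed in direction. Treml2 was called higher (log2 fold change 3.23 ± 0.61) and so was Treml4 (2.11 ± 0.73), but Treml4 lost its call when LPS replicate 1 or 3 or vehicle replicate 2, 3 or 4 was left out (log2 fold change 1.60 to 2.13) and under total count scaling (1.45). Treml1 had 27, 23, 9 and 24 counts in vehicle replicates 1 to 4 and 0 counts in each LPS library, and was under the filter. It was called lower without the filter (edgeR adjusted p = 0.000168). Trem2, a DAP12-coupled receptor for lipids that microglia are known for, lies 99476 bases from Trem1 and fell from 549 ± 33.4 to 13.4 ± 6.20 CPM (SD, n = 4), with a log2 fold change of -5.36 ± 0.32 (edgeR adjusted p = 8.73e-07).

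**Figure D3:**
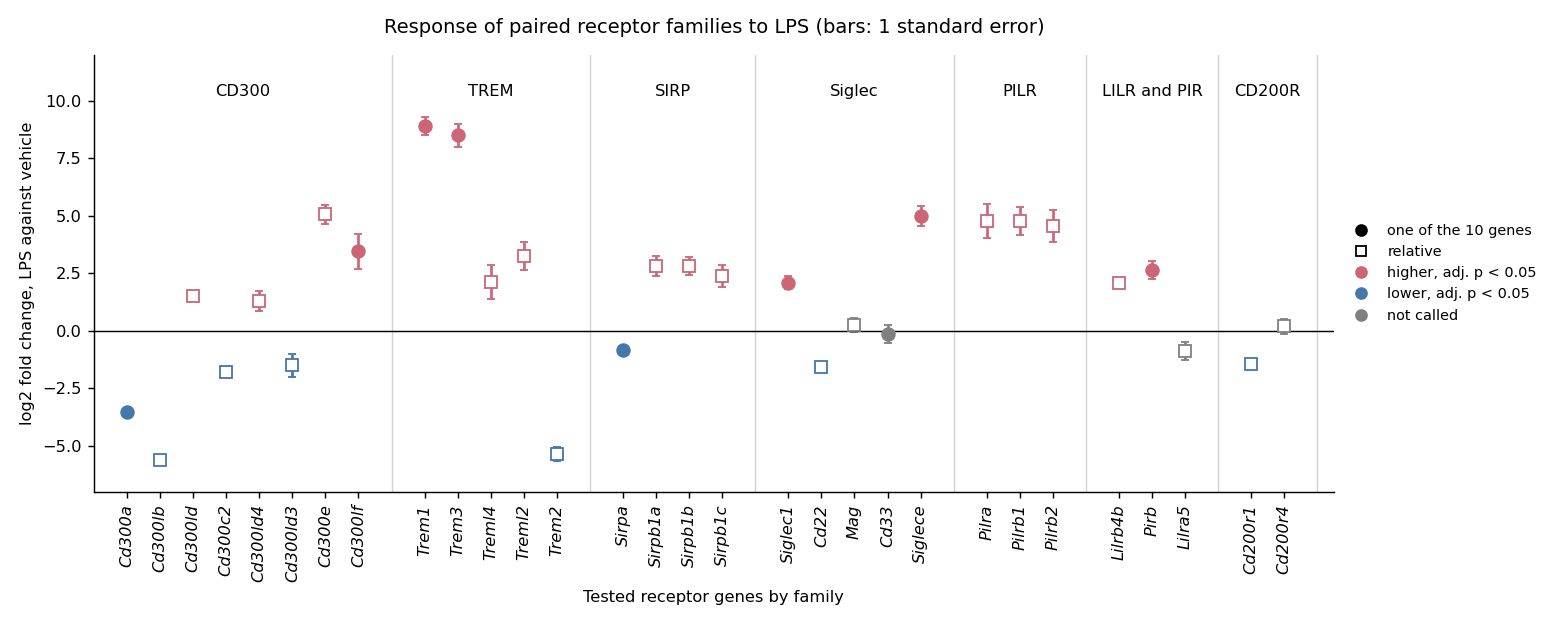
Log2 fold change, LPS against vehicle, of each tested receptor gene by family, with bars of 1 standard error. Filled circles are the tested ones of the 10 receptor genes, open squares their relatives (Lilr4b is drawn under its other name, Lilrb4b), and colour shows the call at an adjusted p under 0.05. Trem1 at 8.92 and Trem3 at 8.50 are at the top, and Cd300lb at -5.62 and Trem2 at -5.36 at the bottom.

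Over all related receptor genes listed, 34 of 43 names were matched to the count table and 21 were tested. Of these, 12 were called higher and 6 lower, where 30.3% of all tested genes were called higher and 33.8% lower. Their median log2 fold change was 1.50, against -0.11 over all tested genes. Relatives with low vehicle levels, such as Cd300e at a mean of 0.451 CPM, could pass the filter through their LPS libraries. These counts and the median therefore describe the tested relatives and are no measure of the families as a whole. At a minimum of 10 counts in every library, 8 relatives were called higher and 5 lower. Without the filter 8 were called lower, among them Treml1 and Siglecf (log2 fold change -3.00, edgeR adjusted p = 0.00644), which the filter had left out. Leaving out 1 library gave 5 to 8 lower relatives. The unmatched names are 8 Pira genes and Treml6. Pilra, an ITIM-bearing receptor, and its activating partners Pilrb1 and Pilrb2 were called higher, with log2 fold changes of 4.57 to 4.77, though they share 20.8% to 32.2% of their windows and 15.1% of the exonic bases of Pilra lie opposite Zcwpw1. The B cell Siglec Cd22 was called lower (-1.56), as was Cd200r1 (-1.43), an inhibitory receptor for CD200. Siglech, a marker of microglia and plasmacytoid dendritic cells, had 0 to 2 counts and was not tested. Lilra5 was not called (-0.89, edgeR adjusted p = 0.0786) but was called lower with a replicate block (edgeR adjusted p = 0.00832) and without LPS replicate 1 (-1.42).

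The changes in level reordered the 10 genes. TPM carries no TMM adjustment, so it is read here only for the order and shares within a library or group, not for the size of a change. In vehicle, the order by mean TPM was Sirpa (3031 ± 398, SD, n = 4), Siglec1 (363 ± 119), Cd300a (71.7 ± 6.00), Pirb (67.0 ± 36.4), Cd33 (35.5 ± 13.6), Siglece (17.2 ± 10.96), Cd300lf (2.79 ± 1.68), Trem1 (0.481 ± 0.187), Trem3 (0.280 ± 0.352) and Lilrb4a (0.0131 ± 0.0152). Neighbours from Cd300a to Siglece and from Trem1 to Lilrb4a overlapped between libraries, while Sirpa, Siglec1 and Cd300lf stood apart from their neighbours. After LPS the order was Sirpa (1001 ± 169), Siglec1 (924 ± 284), Siglece (327 ± 86.4), Pirb (253 ± 10.96), Trem1 (141 ± 41.5), Trem3 (68.3 ± 17.8), Cd33 (18.7 ± 7.47), Cd300lf (17.5 ± 17.7), Cd300a (3.62 ± 0.264) and Lilrb4a (0.0137 ± 0.0275). Sirpa and Siglec1 overlapped, as did Siglece and Pirb, and Cd33 and Cd300lf. Cd300a went from the third place to the ninth, and Siglece from the sixth to the third.

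Of the summed TPM of the 10 genes, Sirpa held 84.3% ± 3.86 (SD, n = 4) in vehicle and 36.7% ± 7.49 after LPS. Siglec1 went from 10.1% ± 3.39 to 33.0% ± 7.62, Siglece from 0.5003% ± 0.368 to 11.7% ± 2.14 and Pirb from 1.96% ± 1.23 to 9.30% ± 1.32. Trem1 went from 0.0138% ± 0.00627 to 5.22% ± 1.91.

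**Figure D4:**
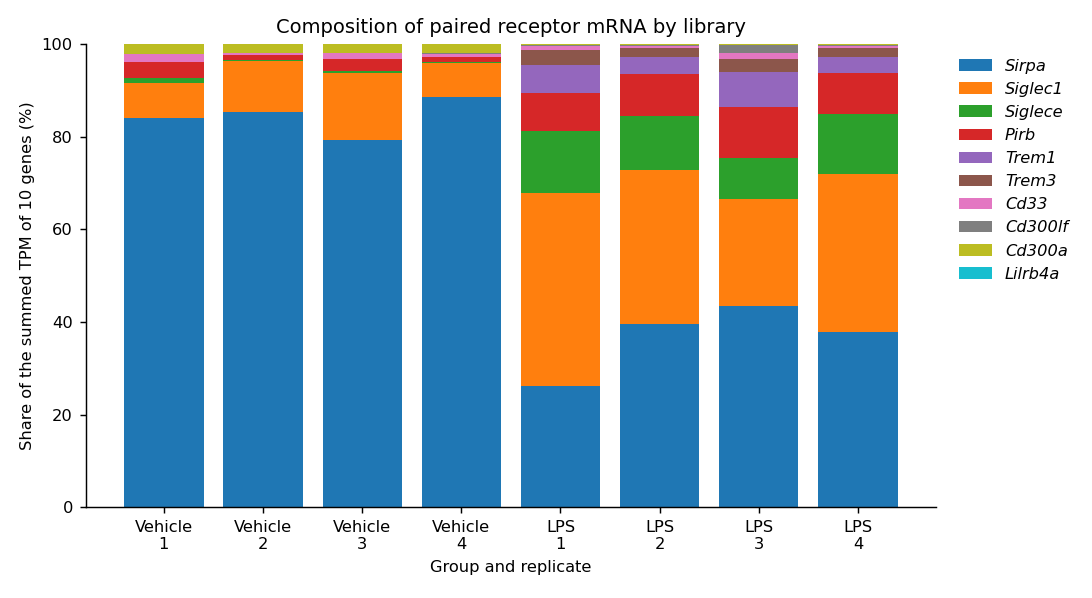
Share of the summed TPM of the 10 paired receptor genes held by each gene, for each of the 8 libraries (stacked bars, in %). Sirpa fills 79.3% to 88.6% of the vehicle bars and 26.1% to 43.5% of the LPS bars, where Siglec1, Siglece, Pirb and Trem1 take larger shares.

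The 16 genes listed for signalling below these receptors were all tested, and 10 were called higher and 3 lower (median log2 fold change 0.55), or 5 and 6 under total count scaling. For all tested genes the shares were 30.3% higher and 33.8% lower, and the median was -0.11. Among the adaptors, Tyrobp, which encodes the DAP12 that Trem1 and Trem3 need at the surface, fell from 900 ± 25.0 to 431 ± 50.3 CPM (SD, n = 4), with a log2 fold change of -1.06 ± 0.12 (edgeR adjusted p = 5.11e-05). Hcst (DAP10) was also called lower (-0.63), a call lost without vehicle replicate 2 (-0.58) or 3 (-0.50), whereas Fcer1g, the Fc receptor gamma chain, was called higher (1.63). Syk (2.40), the Src family kinase Lyn (2.36) and the exchange factor Vav1 (1.79) were called higher. Card9, an adaptor downstream of Syk, was called lower (-0.49, edgeR adjusted p = 0.0487), a call lost without any 1 of the 8 libraries (-0.55 to -0.32). Fgr was not called (1.62, edgeR adjusted p = 0.0891) but was with a replicate block (edgeR adjusted p = 0.0154) and without vehicle replicate 1 (2.55).

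The phosphatases that ITIMs recruit had smaller log2 fold changes than the kinases named above. Ptpn6 (SHP-1) had a log2 fold change of 0.53 ± 0.14 (edgeR adjusted p = 0.00725) and Ptpn11 (SHP-2) of 0.49 ± 0.08 (edgeR adjusted p = 0.000675), but under total count scaling these were -0.13 and -0.19, neither of them called. Inpp5d (SHIP-1) had a log2 fold change of 0.27 ± 0.10 (edgeR adjusted p = 0.0413), which was not called with a replicate block (edgeR adjusted p = 0.0654) and was called lower under total count scaling (-0.41). The Inpp5d call was also lost without vehicle replicate 2 or 4 or LPS replicate 2 or 4 (0.26 to 0.29). It was further lost under upper quartile scaling (0.11), without the filter (0.23) and at a minimum of 10 counts in every library (0.21).

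On the ligand side, 17 of 19 listed genes were tested, and 5 were called higher and 8 lower (median log2 fold change -0.17), or 2 and 11 under total count scaling. Of all tested genes, 30.3% were called higher and 33.8% lower (median -0.11). Higher calls were thus about as frequent among the ligand genes as among all tested genes. Cd47, the ligand of Sirpa, rose from 299 ± 55.8 to 639 ± 109 CPM (SD, n = 4), with a log2 fold change of 1.09 ± 0.17 (edgeR adjusted p = 0.000388), opposite to Sirpa. Pglyrp1, which encodes a ligand of TREM-1, had at most 1 count in a library. Of the genes that make the sialic acid bound by Siglecs, Gne, the first enzyme of its synthesis, was called lower (-2.36), as were the sialyltransferases St6gal1 (-5.59), St8sia4 (-3.43) and St3gal2 (-3.21) and the lysosomal sialic acid exporter Slc17a5 (-2.57). St3gal1 was called higher (2.19), as were St3gal4 (0.77), the sialidase Neu3 (0.66) and St3gal5 (0.47). The calls of these last 3 were lost under total count scaling, where St3gal4 had a log2 fold change of 0.11, Neu3 of -0.027 and St3gal5 of -0.21, and those of Neu3 (0.50) and St3gal5 (0.31) also under upper quartile scaling. The call of Neu3 was further lost without LPS replicate 2 (0.63).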

How the data were processed

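Total RNA of cultured mouse microglia was sequenced in single-end 50-base reads. The library kit and sequencer differ between the labels (TruSeq Stranded mRNA, NovaSeq) and the paper's methods (TruSeq RNA, HiSeq). The authors filtered, aligned and counted the reads with HTSeqGenie and GSNAP on GRCm38, kept uniquely aligned reads, and deposited raw counts per Ensembl gene without normalization. The annotation release and the use of strand in counting are not given in the sources used here, so reads of genes on opposite strands may not be told apart. Gene symbols, positions and exonic lengths came from GENCODE vM21, and promoters from RefSeq (GRCm38.p6).

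Groups were taken from the labels. All 8 libraries were fitted with edgeR 4.0.16 in R 4.3.3 (TMM, filterByExpr at 10 counts and a total of at least 15, quasi-likelihood test, two-sided), with Benjamini-Hochberg adjustment over the 13847 tested genes and a threshold of 0.05. Log2 ratios of the counts of 2 genes (1 added to each) were compared over the 70 divisions of 8 libraries into 4 and 4. TPM used the exonic length of each gene. Windows of 50 bases of each transcript were compared with all other transcripts. Tables and figures were made with Python 3.11.15, numpy 2.4.6, pandas 2.3.3, scipy 1.17.1 and matplotlib 3.10.9, and the fits were tested on simulated data.

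The receptor genes, the other gene lists and the alternatives were chosen with earlier results of these data known. Named from each other list were up to 5 higher and 5 lower genes with the largest changes, and the adaptors, the ITIM phosphatases, Trem2, Siglech and Cd47. One gene that this rule names is not reported here. Relatives with reads shared with a listed gene, Lilra5, Treml1, Siglecf, Fgr, Pglyrp1 and the remaining called relatives of a family were named after their values were seen. Alternatives were DESeq2 1.42.0, other filters, upper quartile and total count scaling (the latter chosen after seeing the data), a replicate block, stricter calls, a pseudocount of 0.5 in place of 1, and leaving out each library.

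The edgeR results given without mention of a replicate block come from a fit without pairs. In the replicate block and the sign flips, same-numbered vehicle and LPS libraries were treated as pairs. Deviations of same-numbered libraries from the group means were correlated over 8010 genes in each of the 4 numbers (r = 0.373, 0.196, 0.171 and 0.108). The highest r with another number was -0.138, 0.146, -0.0223 and 0.137, above that of the same number for replicate 4. The pairing follows the replicate numbers of the labels, and the sources used here do not say what the numbers mark. No 2 libraries of a group agreed within sampling noise.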

Additional observations from a re-analysis of the deposited data

Results flagged for a closer look

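In 86 groups of 4 libraries, the highest or lowest value was compared with the rest by Dixon's test at 95%, which chance alone would pass in about 1 in 20 groups, and 6 passed. Siglece stood out in vehicle replicate 1 at 14.98 CPM, and Cd300lf in LPS replicate 3 at 98.7 CPM. The log2 ratio of Trem1 to Trem3 counts stood out in LPS replicate 3 at 3.05. Among relatives and signalling genes, Treml2 stood out in vehicle replicate 3 at 11.2 CPM, Lyn in LPS replicate 1 at 978 CPM and Card9 in LPS replicate 3 at 12.9 CPM.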

How the results depend on the processing

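Under every planned and added setting in which they were tested, Siglec1, Siglece, Pirb, Cd300lf, Trem1 and Trem3 stayed called higher and Cd300a and Sirpa called lower, except that Sirpa falls short of a minimum absolute log2 fold change of 1, which left 1 receptor gene called lower. The replicate block changed the calls of Inpp5d, Lilra5 and Fgr and no other call among the receptor, signalling and ligand genes. Among cell type markers, it called Tmem119, Aldoc and Pdgfra lower and Ms4a7 higher, which the fit without it did not. Total count scaling, chosen after seeing the data, gave 1988 higher and 8457 lower genes in all, 5 higher and 6 lower signalling genes, 2 higher ligand genes and 3 lower receptor genes. A minimum log2 fold change of 1 gave 2224 higher and 2998 lower genes in all, 5 higher and 1 lower signalling genes, and 2 higher and 5 lower ligand genes. An adjusted p under 0.01 left 1 lower signalling gene and 2 higher ligand genes, and upper quartile scaling 3 higher ligand genes. Leaving out 1 library gave 1 to 2 lower signalling genes and a Cd33 log2 fold change of -0.52 to 0.12, with a changed sign at 0.12, 0.0083, 0.023 and 0.014. For the count ratios, the sign flips of the replicate block (adjusted p = 0.167, as 4 pairs allow no raw p under 0.125) left the differences at 5.29 for Siglece to Cd33, -2.31 for Lilrb4a to Pirb and -6.69 for Cd300a to Cd300lf. Leaving out 1 library gave 5.07 to 5.74, -2.71 to -2.05 and -7.05 to -6.10, and 0.097 to 0.80 for Trem1 to Trem3, where 3 against 4 libraries limit the exact p. The Lilrb4a to Pirb ratio rests on Lilrb4a at the floor of 3 counts and is not read as a ratio. A pseudocount of 0.5 turned the Trem1 to Trem3 difference to -0.075 (adjusted p = 0.914). Causes were not tested. Depth limits the vehicle levels of Trem1 and Trem3 and all values of Lilrb4a.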

Other observations

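Some of the 10 receptor genes varied between replicates in the same way in both groups, and others did not. For Cd33, Cd300lf, Trem1 and Trem3, replicates 1 and 3 lay above replicates 2 and 4 within the vehicle libraries and again within the LPS libraries, as the values above show. In vehicle replicates 1 to 4 this rests on few counts for Trem1 (13, 9, 14 and 4) and Trem3 (5, 0, 3 and 0). For Pirb this held in vehicle (118 and 93.3 against 36.2 and 35.3 CPM) but not after LPS, where replicate 1 was the lowest at 405 CPM. Cd300a, Siglec1, Siglece and Sirpa did not share the pattern. Cd300a was at 77.0 to 80.0 CPM in the vehicle libraries. For Siglec1, replicate 3 was the highest in vehicle (868 CPM) and the lowest after LPS (1683 CPM). Siglece was lowest after LPS in replicate 3 (164 CPM). Sirpa was lower in vehicle replicates 1 and 3 (3184 and 3254 CPM) than in vehicle replicates 2 and 4 (3618 and 3591 CPM). In vehicle, some markers of oligodendrocyte precursors were lower in replicates 1 and 3 than in replicates 2 and 4, with Pdgfra at 2.84 and 0.381 against 16.7 and 14.9 CPM and Olig1 at 7.56 and 2.06 against 13.8 and 13.7 CPM. Others of the list were not, with Cspg4 at 24.0, 12.6, 11.5 and 13.3 CPM and Mbp at 107, 76.2, 77.9 and 74.4 CPM in vehicle replicates 1 to 4. In LPS replicates 1 to 4, Olig1 was at 2.69, 1.14, 0.0466 and 1.14 CPM, with replicate 1 the highest. Pdgfra was at 2.33, 2.56, 0.140 and 2.92 CPM there, with replicate 1 close to replicate 2. These genes were picked after their values were seen, the labels give no batch or culture for a replicate number, and the part of these markers in the pattern was not tested.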
